A study of Bos taurus with 13 samples.

Results

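ST6GAL1, B4GALT4 and PGM1 were the 3 genes of sugar metabolism and glycosyl transfer examined here, of 703 genes named on a bovine mammary cDNA microarray. They were found by their symbols in the platform's annotation. Each was represented by 1 clone printed in 3 spots, so the members held 9 of the 3888 spots, and all 3 passed the filter on missing values. All 3 members were chosen on the results of the lactating arrays. The members' values on those arrays are therefore given as a description, with no p-value.

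Milk sugar is made in the Golgi apparatus of the mammary epithelial cell. There the galactosyltransferase B4GALT1, steered by the whey protein alpha-lactalbumin (LALBA), transfers galactose from UDP-galactose to glucose. PGM1, a phosphoglucomutase, interconverts glucose 6-phosphate and glucose 1-phosphate, the form from which UDP-glucose and then UDP-galactose are built. The galactosyltransferase B4GALT4 adds galactose to N-acetylglucosamine at the ends of glycan chains, and the sialyltransferase ST6GAL1 caps such galactose with sialic acid. Sialylated sugar chains are known from milk glycoproteins and from the oligosaccharides of colostrum. B4GALT1 was not among the named genes.

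The series held 13 hybridisations of total RNA, each with a pair of channels. On 2 arrays lactating mammary gland was set against the gland of a pre-pubertal Holstein heifer, of 136 kg on array 1 and of 227 kg on array 2. Array 2 carries the keyword post-pubertal although pre-pubertal stands in its title and channel, which were followed, so the stage of that heifer is open to doubt wherever array 2 or a mean of both arrays is given. On 8 arrays adipose, adrenal, liver, lymph, spleen and thymus tissue, ileum and the pre-pubertal gland of a 136 kg heifer were each set against a cell line named BovMac, the reference, with 1 array per tissue. 1 array paired the gland of a 136 kg pre-pubertal heifer with that of a 310 kg post-pubertal heifer, and 2 arrays paired the reference with itself, with the cell line spelled BovMav on the first of them. The labels do not say whether animals were shared or pooled, so p-values measure only the spread between these arrays, which may be technical.

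Values are log ratios of unstated base, centred on each array's median. A feature is the mean of the spots of 1 sequence accession, and 1134 to 1178 of 1179 features had a value on an array. The dyes are not stated. Positive ratios on the lactating arrays are said here to lie on the casein side, which is likely the side of higher RNA in lactating gland. By their means 8 of 9 measured milk secretion genes lay on it, against 348 of 697 genes in all, and 2 of the 9 passed limma's test. That list was chosen with earlier results of these data known. PAEP, counted among the 8, had features that disagreed, with means from -0.14 to 1.08. CSN1S1, the alpha-S1 casein gene, stood at 1.61 and 2.56 on the lactating arrays, and CSN2, the beta-casein gene, at 0.76 and 0.79. CSN1S2 (-0.19 and 0.39) and CSN3 (0.98 and -0.16), also casein genes, changed sides between the arrays. On the tissue arrays the direction was not settled, and with the sign turned every order below reverses. The labels name the tissue as channel 2 there, but not which channel was divided by which. Titles name the tissue before the reference, and the pre-pubertal gland before the lactating gland. The lowest Pearson r between a pair of tissue arrays over all spots was -0.15. Of the tissue marker lists, 3 of 11 hepatocyte genes were measured, at 0.21 (FGG), -0.27 (A2M) and -1.10 (C3) on the liver array, and 0 adipocyte, adrenal cortex, ileum epithelium, B cell or T cell genes, so these tissues' own markers did not settle the labels. Of 4 measured leukocyte genes, RAC2 was at -0.27 in lymph tissue, -0.47 in spleen and -0.29 in thymus, and LCP1 at -0.35, -0.34 and -0.17. CD74 was at 0.48, 0.19 and 0.08 and PTPRC at -0.10, -0.09 and 0.06, so their signs differed. In ileum RAC2 was at 0.85, LCP1 at 0.10, CD74 at 2.41 and PTPRC at 0.50. The epithelial genes EPCAM, ELF5 and KRT7 were at 1.94, 0.72 and 0.06 in ileum. Positive in ileum and mixed in the lymphoid tissues, these values were not taken to settle the direction.

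ST6GAL1 lay far to the casein side on both lactating arrays, B4GALT4 on the opposite side of both, and PGM1 near 0. The 3 spots of ST6GAL1 read 1.19, 1.67 and 2.03 on array 1 and 1.36, 1.28 and 2.44 on array 2. All 6 were above 1 log unit. The array means were 1.63 and 1.69, or 1.66 ± 0.04 (SD, n = 2 arrays). That difference between arrays was far smaller than the SD over spots within an array, 0.42 on array 1 and 0.65 on array 2. Only 23 of 1167 features had a higher mean over the lactating arrays. On the arrays that paired the reference with itself ST6GAL1 was at -0.07 and 0.09.

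B4GALT4 read -0.17, -0.45 and -1.42 on lactating array 1 and -0.24, -0.92 and -0.51 on array 2. All 6 spots were negative, but they ranged widely and 1 of them passed 1 log unit. The array means were -0.68 and -0.56, or -0.62 ± 0.09 (SD, n = 2 arrays), with SDs over spots of 0.66 and 0.34. 41 of 1167 features had a lower mean. The means of B4GALT4 were 0.09 and 0.13 on the arrays of the reference against itself, yet the spots of the second spanned -0.87 to 1.28, a range that holds 4 of the 6 lactating spots.

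PGM1 read 0.04, 0.12 and 0.26 on lactating array 1 and -0.11, 0.50 and 0.39 on array 2. The means were 0.14 and 0.26, or 0.20 ± 0.08 (SD, n = 2 arrays), and 318 of 1167 features lay higher. The farthest that PGM1 stood from 0 on any of the 13 arrays was on array 2 of the reference against itself, at -0.91, with spots of -0.13, -0.85 and -1.75. Its distance from 0 on the lactating arrays was thus smaller than one seen where both channels held the same RNA.

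1 of the 3 members, ST6GAL1, stood at least 1 unit to the casein side on both lactating arrays, a mark reached by 3.17% of features, and 0 of 3 stood as far on the opposite side, where 0% of features did. In whole gland, fewer cells of a type and less RNA per cell cannot be told apart. Beside these values, 0 of 3 measured epithelial genes (of 9 listed) passed limma's test, and 0 had an unadjusted p below 0.05. Their means were 0.14 for EPCAM, -0.25 for KRT7 and -0.09 for ELF5. EPCAM changed sides between the arrays (-0.09 and 0.37), and the features of ELF5 ranged from -0.41 to 0.30. Of the measured leukocyte genes 1 of 4 passed, RAC2 at -0.53 (adjusted p = 0.0438, limma), with PTPRC at 0.08, LCP1 at -0.01 and CD74 at -0.17. Of the stroma genes 1 of 3 passed, COL5A2 at 0.57 (adjusted p = 0.0185, limma), with POSTN at -0.21 and TNC at -0.38. Of the hepatocyte genes 1 of 3 passed, C3 at 1.13 (adjusted p = 7.53e-05, limma), with FGG at 0.04 and A2M at -0.13. Signs thus differed within each of these lists. RAC2 lost its call in 10 of 12 alternatives and COL5A2 in 8, with adjusted p up to 0.63 and 0.357, and C3 in 2 of the 7 that could be run for it, with up to 0.0739. The same fit called 14.8% of all genes, with 11.3% to the casein side and 3.44% to the other. C3 also stood at -0.88 on array 1 of the reference against itself and had no value on array 2. The fits that use array 2 of the reference, and the minimum of 3 spots, could therefore not be run for C3. Over the tissue arrays C3 was lowest in liver (-1.10) and highest in adrenal tissue (0.62), and it is not read here as a sign of liver cells. The part of epithelial, leukocyte and stroma cells in the members' ratios was not tested.

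**Figure D1:**
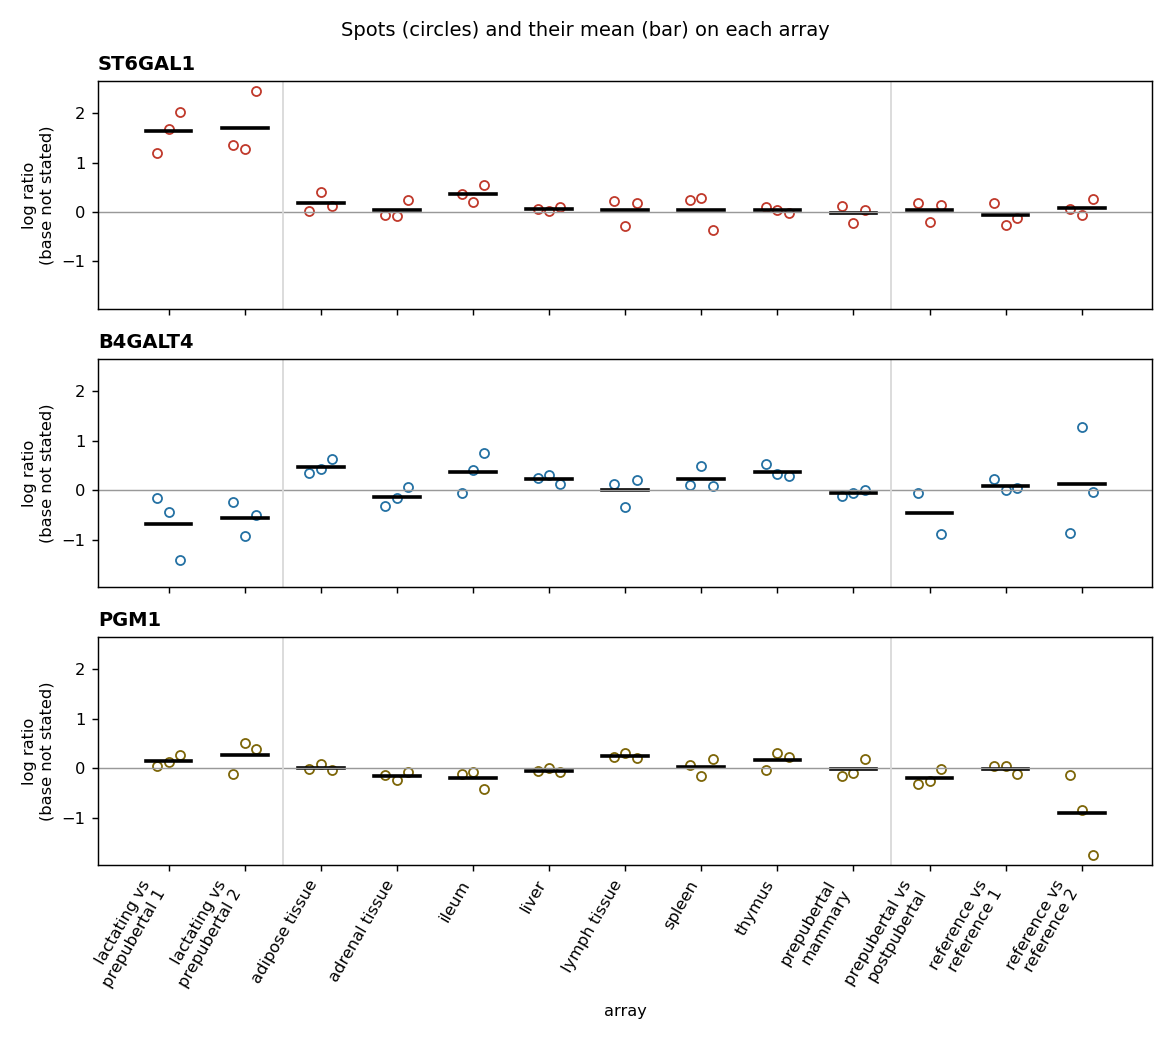
Log ratio (base not stated, arrays median centred) of each spot of ST6GAL1, B4GALT4 and PGM1 on the 13 arrays, with circles for spots and a bar for their mean. The ST6GAL1 spots lie between 1.19 and 2.44 on the lactating arrays and between -0.37 and 0.54 on the tissue arrays, while the lowest PGM1 spot, -1.75, is on an array that paired the reference with itself.

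**Figure D2:**
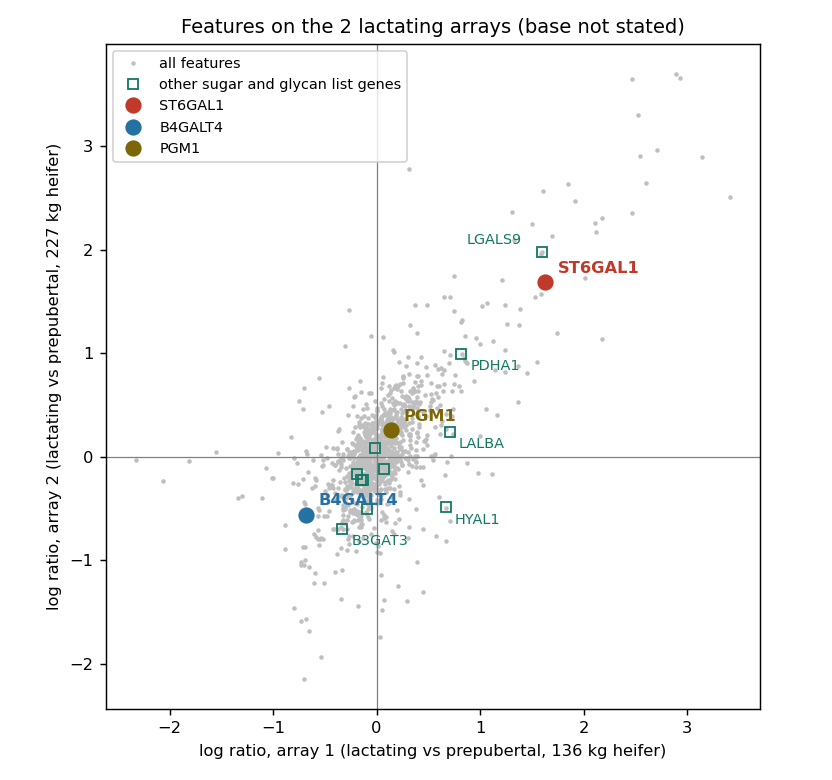
Each point is a feature, with its log ratio on lactating array 1 on the x axis and on lactating array 2 on the y axis (base not stated). ST6GAL1 (1.63, 1.69) lies in the upper right among the far points, B4GALT4 (-0.68, -0.56) at the lower left edge of the cloud and PGM1 (0.14, 0.26) inside it, and squares mark the 11 other measured genes of the sugar and glycan lists.

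The rest of the sugar and glycan pathways was sparsely covered. Of 305 listed genes other than the members, 11 were measured. limma placed 2 of the 11 past the threshold on the casein side, where 11.3% of the 697 genes tested were called, and 1 on the opposite side, where 3.44% were. The other 8 did not pass, and 14.8% of all genes (11.7% of features) were called in either direction. The 11 genes had a median of -0.03, and all genes had one of 0.00.

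Among the genes of lactose synthesis only LALBA was measured beside PGM1, and it lay at 0.71 and 0.24, with 0.47 ± 0.33 (SD, n = 2 arrays, adjusted p = 0.0647, limma). 2 clones carried it, at 0.67 and 0.74 on array 1 and at 0.27 and 0.22 on array 2. On array 2 the spots of the first of these clones spanned -0.87 to 1.09, a range that holds all its spots of array 1 (0.42 to 0.86). LALBA passed with a minimum of 3 spots (adjusted p = 0.0431) and with the median of spots (0.0379), in a range of 0.0379 to 0.607 over the alternatives.

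PDHA1, a subunit of the pyruvate dehydrogenase that feeds the product of glycolysis into acetyl-CoA, lay on the casein side at 0.82 and 0.99, with a mean of 0.91 ± 0.12 (adjusted p = 0.000578, limma). On array 1 its 3 spots lay between 0.82 and 0.83, and on array 2 between 0.54 and 1.71. Its other values were -0.30 and 0.17 on the arrays of the reference against itself and -0.26 on the array of pre-pubertal gland. The PDHA1 call was lost in contrast with the reference arrays (adjusted p = 0.126) and without either lactating array (0.0744 without array 1, 0.225 without array 2), in a range of 0.000103 to 0.225. The other glycolytic genes, the hexokinase-like HKDC1 (-0.19 ± 0.06) and the aldolase ALDOC (-0.18 ± 0.07), did not pass.

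LGALS9, a galectin that binds galactose-containing glycans, lay on the casein side at 1.60 and 1.98 (adjusted p = 8.67e-07, limma). It was also at -1.98 on array 2 of the reference against itself. The call was lost with the spread of those arrays shared (adjusted p = 0.0871), in contrast with them (0.0825) and without lactating array 1 (0.111) or 2 (0.314), in a range of 4.01e-14 to 0.314.

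On the opposite side, B3GAT3, which completes the linker that anchors glycosaminoglycan chains to proteins, lay at -0.33 and -0.70 (adjusted p = 0.0412, limma). B3GAT3 lost the call in 10 of 12 alternatives, among them without array 1 (adjusted p = 0.113) and without array 2 (0.663), in a range of 0.0244 to 0.663. Neither gene of N-glycan assembly passed, the oligosaccharyltransferase subunit STT3A at 0.03 ± 0.07 and MGAT4A, which adds a branch to N-glycans, at -0.30 ± 0.30. Of the glycan-degrading hydrolases, the fucosidase FUCA1 (-0.03 ± 0.13), the sulfatase ARSB (-0.18 ± 0.02) and the hyaluronidase HYAL1 (0.09 ± 0.82) did not pass. HYAL1 changed sides between the arrays, at 0.67 and -0.49. Unadjusted p-values fell below 0.05 for 0 of these 5 genes and of the glycolytic pair. 0 genes were measured of the O-glycan and fucose list and of the nucleotide sugar list, and no galactosyltransferase other than B4GALT4 or gene of sialic acid metabolism other than ST6GAL1.

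**Figure D3:**
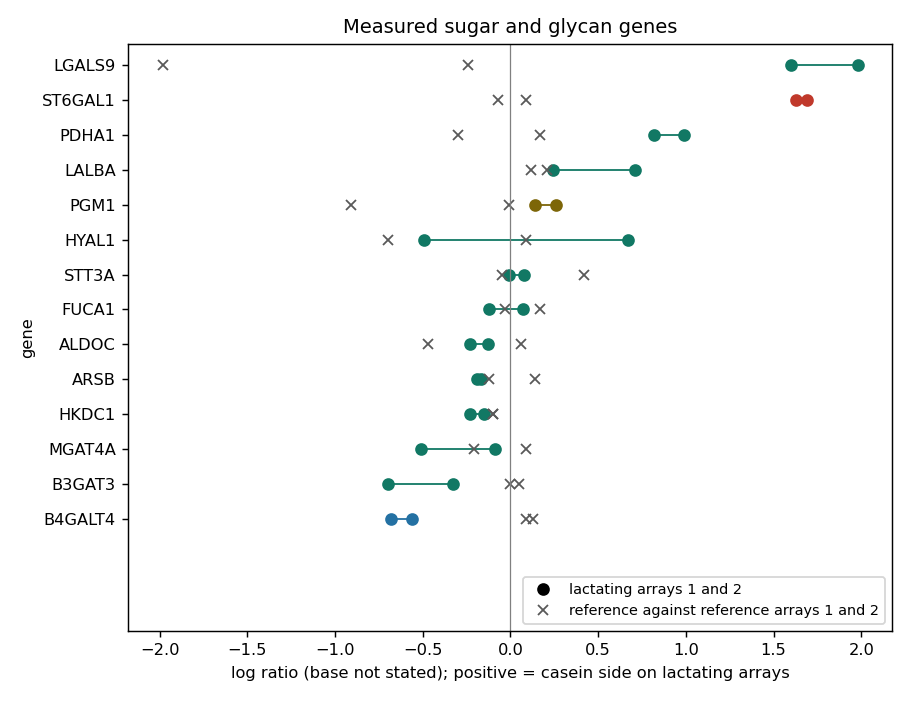
Log ratio (x axis, base not stated) of the 14 measured sugar and glycan genes, with dots for the 2 lactating arrays and crosses for the 2 arrays of the reference against itself. The dots of LGALS9, ST6GAL1 and PDHA1 lie farthest to the right, B4GALT4 and B3GAT3 have the lowest means, and the crosses of LGALS9 (-1.98) and PGM1 (-0.91) are the farthest from 0.

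The members were chosen with earlier results of these data known, so their tissue ratios are also given as a description. 0 of 3 members stood at least 1 unit from 0 on any tissue array. That mark was passed by 0.171% of features in adipose tissue, 0.34% in adrenal tissue, 8.4% in ileum, 0.426% in liver, 0.34% in lymph tissue, 0.255% in spleen and in thymus and 1.02% in pre-pubertal mammary gland. With 1 array per tissue there was no test, and errors below are SDs over 3 spots. These SDs do not measure the spread between arrays. The arrays of the reference against itself had SDs over features of 0.29 (array 1) and 0.44 (array 2), larger than every tissue array but ileum (0.56). From the 5th to the 95th percentile their features ran from -0.51 to 0.31 and from -0.74 to 0.53. Most tissue values of the members lie within those ranges.

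ST6GAL1 was nearly flat over the tissues. Its highest value was in ileum (0.37 ± 0.17, spots 0.37, 0.20 and 0.54), followed by adipose tissue (0.18 ± 0.20). Liver (0.06 ± 0.05), spleen (0.05 ± 0.37), thymus (0.05 ± 0.07), lymph tissue (0.04 ± 0.28) and adrenal tissue (0.04 ± 0.18) lay close together. The lowest was pre-pubertal mammary gland at -0.02 ± 0.18, though with the median of spots adrenal tissue (-0.06) lay below it (0.04). The spots of every pair of neighbours in this order overlapped, and 3 of 28 pairs of tissues had spots that did not. The range of ST6GAL1 over tissues, 0.39, was smaller than the median of 0.52 over 695 genes, and 23.2% of genes had a smaller one. With arrays scaled to the same median absolute deviation, ST6GAL1 was higher in adipose tissue (0.32) than in ileum (0.25). Ileum, where ST6GAL1 was highest before that scaling, also had EPCAM, an epithelial adhesion gene, at 1.94 and CD74, the class II invariant chain, at 2.41. EPCAM was also at 1.51 on array 2 of the reference against itself. Their part in the value was not tested.

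B4GALT4 varied more. It stood at 0.46 ± 0.15 in adipose tissue (spots 0.34, 0.42 and 0.63), where 99.1% of features lay lower. On array 2 of the reference against itself the 95th percentile of features was higher, at 0.53, and on array 1 it was lower, at 0.31. Thymus (0.37 ± 0.13) and ileum (0.37 ± 0.40) came next, then liver (0.22 ± 0.10) and spleen (0.22 ± 0.23). The lowest were lymph tissue (0.00 ± 0.30), pre-pubertal mammary gland (-0.05 ± 0.06) and adrenal tissue (-0.14 ± 0.19). Each neighbour in this order overlapped the next, but 11 of 28 pairs of tissues did not overlap: the 3 spots of adipose tissue, for example, lay above all 3 of pre-pubertal gland, adrenal tissue, liver and lymph tissue. Its range of 0.60 was larger than that of 65.2% of genes. The same 0.37 meant different ranks in thymus and ileum, with 92.5% and 86.8% of features below it, since the ileum array was spread more widely (SD over features 0.56, against 0.25 in thymus).

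PGM1 ran from lymph tissue, at 0.24 ± 0.05 (spots 0.23, 0.30 and 0.20), to ileum, at -0.20 ± 0.19 (spots -0.12, -0.07 and -0.42). Thymus was at 0.16 ± 0.17, spleen at 0.03 ± 0.17, adipose tissue at 0.01 ± 0.06, pre-pubertal mammary gland at -0.02 ± 0.18, liver at -0.05 ± 0.05 and adrenal tissue at -0.15 ± 0.08. Neighbours overlapped throughout, while the spots of 10 of 28 pairs of tissues did not. The spots of lymph tissue lay above all spots of ileum, liver, adrenal and adipose tissue, spleen and pre-pubertal gland. Its range of 0.45 exceeded that of 34.5% of genes. With arrays scaled to the same median absolute deviation, PGM1 was lower in adrenal tissue (-0.22) than in ileum (-0.14).

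In pre-pubertal mammary gland the members stood together near 0, at -0.02 for ST6GAL1, -0.05 for B4GALT4 and -0.02 for PGM1. ST6GAL1 had 7 of the 7 other tissues above it, B4GALT4 6 and PGM1 4. For ST6GAL1 that count did not hold with the median of spots, where pre-pubertal gland was at 0.04 and adrenal tissue at -0.06. LALBA was at 0.22 there, close to its 0.19 in liver and its 0.21 on array 2 of the reference against itself. Over the 8 tissues ST6GAL1 and B4GALT4 had a Pearson r of 0.62 (Spearman rho 0.79), although they lay on opposite sides of the lactating arrays. ST6GAL1 and PGM1 had an r of -0.50 and B4GALT4 and PGM1 one of 0.01. These correlations describe 8 arrays that share 1 reference.

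**Figure D4:**
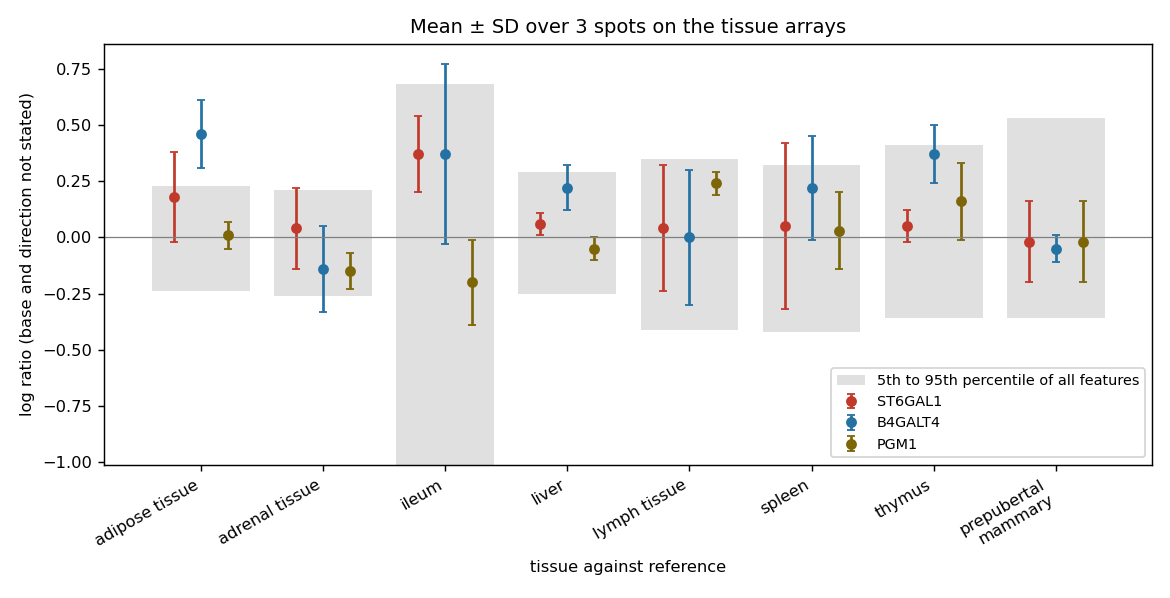
Log ratio (y axis, base and direction not stated) of the members on the 8 tissue arrays, as points for the mean and error bars for the SD over 3 spots, with grey bars from the 5th to the 95th percentile of all features. Of the members only B4GALT4 in adipose tissue (0.46) lies clearly outside its array's grey bar, and the ileum bar is by far the longest.

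By Pearson r over the same 8 tissues among 692 other genes, the profile most like that of PGM1 was SLC37A2 (r = 0.97, rho = 0.98), a transporter of glucose 6-phosphate in the endoplasmic reticulum membrane. PCYOX1 (0.94), a lysosomal prenylcysteine oxidase, and PARK7 (0.93), a protein of the oxidative stress response, followed. Without lymph tissue and ileum, the arrays farthest from the median of PGM1, r was 0.96, 0.89 and 0.80 over 6 tissues. These genes were picked for their r over all 8, so this is no independent check. SLC37A2 also stood at -1.11 on array 2 of the reference against itself, where PGM1 was at -0.91 and both channels held the same RNA. SLC37A2 itself spanned -0.25 to 0.44 and was also highest in lymph tissue.

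The genes most like ST6GAL1 were CSN1S1 (0.91), EPCAM (0.90) and FABP5 (0.89), a fatty acid binding protein. All 3 had their highest tissue value in ileum, and without the ileum and adipose arrays r was 0.61, 0.23 and -0.08 over 6 tissues. CSN1S1 spanned only -0.09 to 0.19 over the tissues. For B4GALT4 they were the lipoxygenase ALOX15B (0.81), the ribosomal protein gene RPL9 (0.78) and the endothelial adhesion receptor ADGRL4 (0.78), with 0.93, 0.37 and 0.52 without adrenal tissue and pre-pubertal gland. The likeness of EPCAM to ST6GAL1 thus rested on ileum, and with ileum alone left out it was 0.26.

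**Figure D5:**
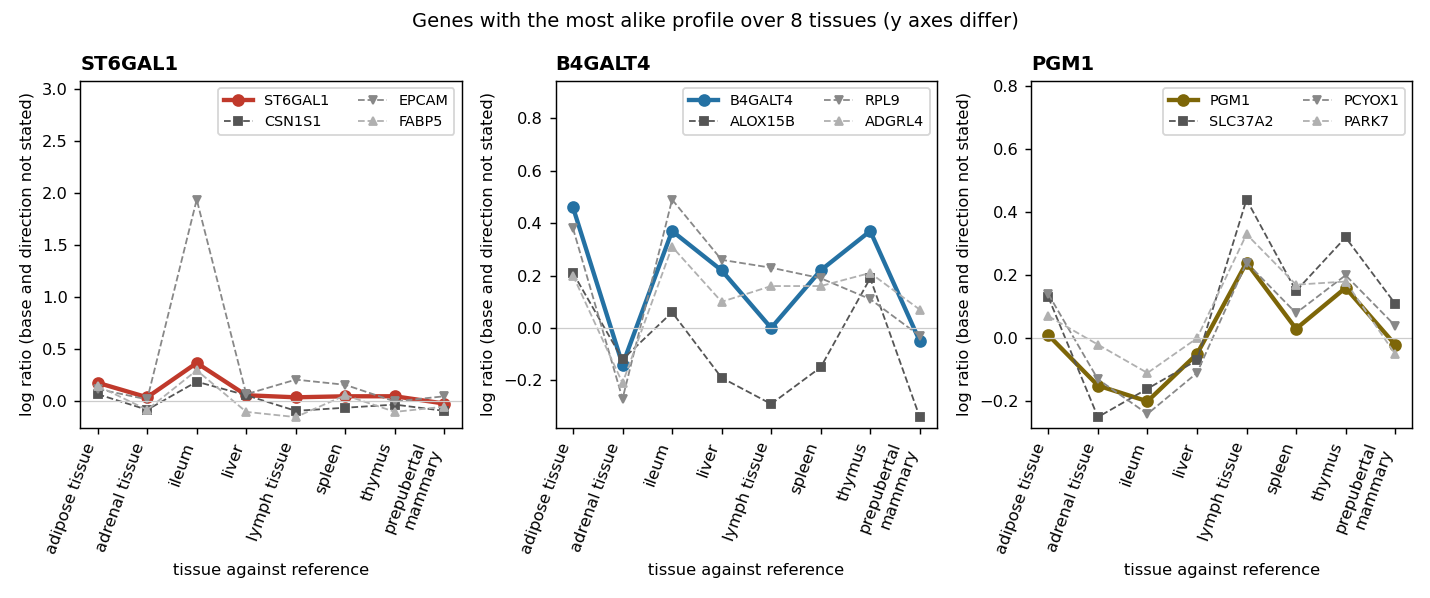
Log ratio (y axes differ, base and direction not stated) over the 8 tissue arrays of each member, as a thick line, and of the 3 genes with the highest Pearson r to it, as dashed lines. PGM1 and SLC37A2 share a high point in lymph tissue (0.24 and 0.44), and EPCAM follows ST6GAL1 mainly through its 1.94 in ileum.

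On the array of pre-pubertal against post-pubertal gland, whose direction was not settled, 0 of 3 members and 0% of features stood 1 unit from 0. ST6GAL1 was at 0.04 ± 0.21 and PGM1 at -0.20 ± 0.16 (SD over 3 spots). B4GALT4 was at -0.47 there, with only 1.21% of features lower, but this mean came from 2 spots at -0.06 and -0.88, the remaining spot being at exact 0 and treated as missing. The arrays of the reference against itself, where 1.72% (array 1) and 4.32% (array 2) of features stood 1 unit from 0, held 0 of 3 members past that mark.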

How the data were processed

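For each of 13 two-channel arrays the deposited values were 1 log ratio per spot. How the authors corrected, normalized and oriented them, and in which base, is not given in the sources used here. Deposited values reached 8.49 in size, too large for a base of 10, and array medians lay between -0.0997 and 0.0304.

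An exact 0 (124 to 373 spots per array) was treated as missing and arrays were median centred. Features are means over the spots sharing an accession (or over an unannotated clone), with at least 2 spots and values on at least 7 arrays, which kept 1179 of 1234. Of the spots, 2538 named 1 gene, 30 several and 1320 none. By identifier 700 of 703 genes matched RefSeq (assembly ARS-UCD2.0), and 0 symbols changed. No coordinates or sequences were used.

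Genes were tested on the lactating arrays against a ratio of 0 by limma (version 3.58.1, lmFit and eBayes under R 4.3.3, two-sided, 1167 features or 697 genes, Benjamini-Hochberg, threshold 0.05). The members were part of this fit and of the shares called over all genes and features, but their p-values are not given. The lactating arrays leave 1 residual degree of freedom per gene, and the spread was pooled with 13.47 prior degrees of freedom. Tables and figures used numpy 2.4.6, pandas 2.3.3 and matplotlib 3.10.9 under Python 3.11.15. Intensities were not used, so the number of arrays limits the precision.

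The members and the 10 pathway and 10 marker lists were chosen with earlier results of these data known. The text names the members, every measured gene of the pathway lists, and the 3 genes with the highest Pearson r to each member over the tissues. Alternatives were no centring, scaling to the same median absolute deviation (MAD), exact 0 kept, other minimums and summaries of spots, 1 feature per gene, the reference arrays in the fit, and each lactating array left out.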

Additional observations from a re-analysis of the deposited data

How the results depend on the processing

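The members' means on the lactating arrays kept their signs under every alternative run. Without centring, which removes a shift of -0.0978, ST6GAL1 was at 1.56, B4GALT4 at -0.72 and PGM1 at 0.10. With arrays scaled to the same MAD, ST6GAL1 was at 1.17 and B4GALT4 at -0.44. With the median of spots they were at 1.52 and -0.48. With 1 lactating array left out, ST6GAL1 ranged from 1.63 to 1.69, B4GALT4 from -0.68 to -0.56 and PGM1 from 0.14 to 0.26. Of 168 recomputed tissue values of the members, 2 moved by more than the SD over spots, 6 changed sign and 0 passed 1 unit. The order of tissues was not kept throughout. With the same MAD, ileum was no longer the highest tissue for ST6GAL1 or the lowest for PGM1.

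limma's count of 136 features was 187 without centring (90 on the casein side, against 97 with centring) and 150 with a minimum of 3 spots. It fell to 51 with the same MAD, 26 with exact 0 kept, 59 with the spread shared with the reference arrays, 20 in contrast with them, 56 in contrast with array 1 of them (an alternative chosen after seeing the data) and 13 to 40 with 1 lactating array left out, where the spread was shared with the reference arrays and the lone array was assumed to vary like them. The casein side held 71.3% of the calls, 48.1% without centring and 88.2% with the same MAD. Of the 11 other pathway genes, 3 passed, against 1 with the spread shared, 0 in contrast with the reference arrays (3 at an unadjusted p below 0.05) and 0 to 0 with 1 lactating array left out (3 at an unadjusted p below 0.05 each time). The causes were not tested. 1 feature per gene applies to genes only.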
